A study of Rattus norvegicus with 16 samples.

Results

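The genes described here are 38 that report on damaged or stalled DNA replication: 17 targets of the transcription factor p53 and 21 genes of the replication stress checkpoint and of DNA repair. They were chosen by name as known members of these pathways. Of the 38, 30 were matched to at least 1 array probe and 27 were bright enough to be tested, among 18173 features tested in all.

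They were followed in primary cultures of hippocampal neurons from Sprague-Dawley rat embryos of embryonic day 18. The 15 samples form 5 groups of 3: untreated cultures, and cultures that had been in 5 µM hydroxyurea during 2, 6, 12 or 24 h. Before the drug was added, the cells were washed and moved to medium whose B27 supplement lacked antioxidants; the labels do not say whether or for how long the untreated cultures were kept in it. They give 6 to 9 days in culture in one place and at most 8 days in another, and name hippocampal tissue as the source of the RNA in the extraction protocol. Since no label calls the replicates separate cultures, the p-values below reflect the spread among these samples, and that spread may be technical.

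Hydroxyurea blocks ribonucleotide reductase, so dividing cells run short of deoxynucleotides and their replication forks stall. Single-stranded DNA at a stalled fork is coated by replication protein A, which brings in the kinase ATR; ATR activates CHK1, which holds back the cell cycle, and the kinases ATM and CHK2 respond to broken DNA. These kinases also stabilise p53, which then switches on genes for cell cycle arrest, repair, cell death and its own restraint. Neurons have left the cell cycle and copy no nuclear genome, but they do repair DNA, and p53 can drive their death after damage. The kinases act by modifying proteins, which RNA levels do not show. By contrast, p53 acts on the RNA of its targets, though other signals can change that RNA too, as for Plk2 below.

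RNA was measured on 16 single-colour Agilent rat arrays on 2 slides; untreated replicate 1 has an array on each slide, and these were averaged. Levels below are log2 processed signal minus the 75th percentile of the array, so 0 is the level of a probe brighter than 75% of all probes, and levels of different probes cannot be set against each other. The share of probes well above background was 64.7% to 70.4%, and 0 spots were saturated. In 14 arrays the median CV of replicate spots was 3.6% to 7.38%, but it was 11.9% for untreated replicate 1 on its first array and 22.4% for 12 h replicate 3. For several of the larger differences below, the value without these arrays, or without the sample that decides it, is given beside the reported one. The deposited score column of 24 h replicate 1 corresponds to the scanner file of replicate 3, and the reverse, so which of these is replicate 1 is unsettled; both are 24 h samples, and the group comparisons are the same either way.

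Of the neuronal markers, 9 of 9 matched were well above background on all 16 arrays, and so were 8 of 8 astrocyte markers, 6 of 6 radial glia markers and 8 of 9 matched markers of dividing cells, so RNA of cells other than neurons was present by these markers. Of the microglia markers 4 of 6 (Cx3cr1, Aif1, Csf1r and Tmem119) and of the endothelial markers 3 of 5 (Pecam1, Cdh5 and Kdr) were well above background on all 16 arrays, and Itgam, Cldn5 and Flt1 on 0. The summed linear level of the markers of dividing cells was 16.6 to 19.0 in untreated samples, 16.1 to 17.9 at 2 h, 16.7 to 18.0 at 6 h, 17.8 to 18.2 at 12 h and 15.8 to 17.9 at 24 h, with overlap between untreated samples and every time. That of the astrocyte markers was 160.5 to 193.4 in untreated samples and 195.2 to 253.6 over the 12 treated samples, with no overlap. The median deviation of the same 8 markers from their mean over all samples did overlap, at -0.16 to 0.07 in untreated and -0.03 to 0.23 in treated samples. The part of these cells in the values below was not tested.

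Most genes of both pathways were detected in these cultures. Of the 30 matched genes, 26 were well above background on all 16 arrays, as were 64.3% of all named genes. Among the p53 targets, 14 of 15 matched genes were on every array; the exception was Pmaip1, which encodes the death-promoting protein NOXA and was well above background on 0 of 16 arrays. Among the checkpoint and repair genes, 12 of 15 matched were on every array, and Fancd2 was on 15. Atm, the kinase for broken DNA, was well above background on 7 arrays and the repair gene Brca1 on 1, a 6 h array; neither they nor Pmaip1 could be tested. No probe was matched here to Sesn1, Ddb2, Atr, Clspn, Rad9a, Topbp1, Rpa1 and Blm, so these 8 genes were not analysed here.

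Motif matches in the promoter sequence of the genes are described without a test. The genes were chosen by name, but membership of these pathways may itself rest on such sites. The matches can therefore not be taken as independent of the choice. RefSeq promoter windows (build GRCr8, 250 bases before to 50 bases after the gene start) were available for 14 p53 targets and 18 checkpoint and repair genes. A member was counted if any of its windows held the motif, whereas shares over all are per window, of 33469 windows for 27457 genes. The 2 are therefore not alike. A p53 half-site, the 10-letter p53 consensus searched on both strands, was in 6 of the 14 p53 targets (Cdkn1a, Gadd45a, Ccng1, Sesn1, Ei24 and Aen), in 1 of the 18 others (H2ax) and in 7.98% of all windows. A pair of half-sites with up to 13 bases between them, the full site, was in 0 of the members' windows and in 0.0598% of all. Sequence outside the windows was not searched, so a full site elsewhere in or near these genes would be missed. An E2F-type motif, the site of the factors that switch on S-phase genes, was searched on both strands as TTTCCCGC, TTTCGCGC, TTTGCCGC or TTTGGCGC. It was in 7 of the 18 checkpoint and repair genes (Atm, Chek1, Clspn, Timeless, Topbp1, Rpa2 and Fancd2), in 0 of the 14 p53 targets and in 2.14% of all windows. No member held both motifs. The stretches below, from RefSeq on the strand of the gene, show the match in capitals with its flanks for genes whose levels are described further on. The half-site matches read as p53 half-sites on both strands, and the E2F-type matches lie on the strand opposite to the gene. A match is a run of letters and does not show that a factor binds there.
Cdkn1a (chr20:7150711-7150760, plus strand): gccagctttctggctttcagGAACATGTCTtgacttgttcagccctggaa
Gadd45a (chr4:97486818-97486867, minus strand): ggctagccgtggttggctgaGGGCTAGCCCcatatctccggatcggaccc
Ccng1 (chr10:25685079-25685126, minus strand): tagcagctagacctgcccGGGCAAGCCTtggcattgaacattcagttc
Aen (chr1:142224483-142224532, plus strand): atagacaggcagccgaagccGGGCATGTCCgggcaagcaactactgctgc
Chek1 (chr8:44629844-44629891, minus strand): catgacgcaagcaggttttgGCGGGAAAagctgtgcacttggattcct
Timeless (chr7:1239430-1239477, plus strand): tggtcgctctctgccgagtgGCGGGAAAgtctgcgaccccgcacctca
Fancd2 (chr4:148234697-148234744, plus strand): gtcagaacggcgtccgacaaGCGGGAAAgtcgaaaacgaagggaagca
Rpa2 (chr5:150260759-150260806, plus strand): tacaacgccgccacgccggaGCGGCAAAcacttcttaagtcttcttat

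No gene tested in either group passed at any time of hydroxyurea, and the groups were not tested as sets. Differences of the 27 genes from untreated lay between -0.56 (Rad17 at 12 h) and 0.49 (Phlda3 at 24 h) on the log2 scale. Of 108 such differences, 27 genes at 4 times, 0 passed limma's test at an adjusted p of 0.05, and 0 had an unadjusted p under 0.05. Of all 18173 features, 0 passed at any time, and 1.29% at 2 h, 0.781% at 6 h, 2.56% at 12 h and 0.913% at 24 h had an unadjusted p under 0.05. The 95% interval lay within 1 log2 unit of 0, a 2-fold change either way, for 102 of the 108 differences. The other 6 were the 4 of Ccng1, Phlda3 at 24 h and Rad17 at 12 h. In these bulk samples, a change in the share of cells that express a gene and a change in RNA per cell cannot be told apart.

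Of the 14 p53 targets tested, 7 had a higher mean than untreated at 2 h, 6 at 6 h, 10 at 12 h and 9 at 24 h, beside 49.4%, 45.2%, 56.6% and 50.4% of all features. Their median log2 difference was 0.005 at 2 h, -0.011 at 6 h, 0.084 at 12 h and 0.029 at 24 h, against -0.002, -0.011, 0.026 and 0.001 over all features. Of the 13 checkpoint and repair genes tested, 6, 6, 9 and 6 were higher at these times, with medians of -0.016, -0.002, 0.043 and -0.011. The 12 h medians rest in part on replicate 3: the median deviation of the p53 targets from their mean over all samples was 0.23 in that sample, while the other 14 samples lay between -0.15 and 0.08. Without that sample the 12 h median was 0.049 for the p53 targets and 0.006 for the checkpoint and repair genes. In the mean of the 4 times, 10 of 14 p53 targets and 8 of 13 checkpoint and repair genes were higher, beside 49% of all features, with medians of 0.010 and 0.007 against -0.002.

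**Figure D1:**
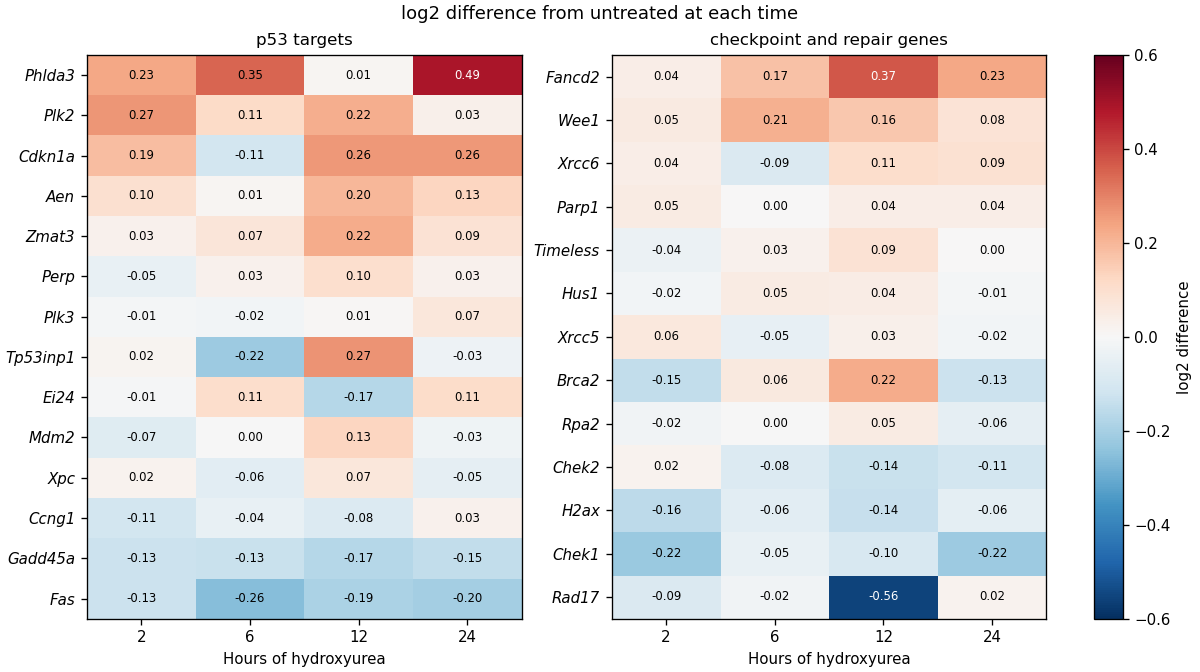
Log2 difference from untreated at 2, 6, 12 and 24 h of hydroxyurea for the 14 p53 targets (left) and the 13 checkpoint and repair genes (right) tested, each cell the difference of 3 treated from 3 untreated samples, genes ordered by their mean over the 4 times, red for higher and blue for lower. Most cells are near white; the deepest are Rad17 at 12 h (-0.56) and Phlda3 at 24 h (0.49), and no cell passed the test.

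The p53 targets Mdm2, Phlda3 and Zmat3 did not pass the test at any time. Mdm2 (NM_001108099) encodes the ubiquitin ligase that degrades p53 and is itself switched on by p53. Its levels for replicates 1, 2 and 3 were 0.34, 0.17 and 0.24 in untreated cultures, 0.23, 0.10 and 0.19 at 2 h, 0.18, 0.27 and 0.29 at 6 h, 0.18, 0.23 and 0.72 at 12 h and 0.38, 0.05 and 0.24 at 24 h. Replicate 3 at 12 h stood above every other sample, and the other treated samples lay around the untreated ones. The differences were -0.07, -0.003, 0.13 and -0.03 at 2, 6, 12 and 24 h (SE 0.14 each), and -0.04 at 12 h without that sample. The second probe of Mdm2, also on all arrays, gave 0.005, -0.04, -0.33 and 0.004, and it was lowest in the same 12 h sample, at -4.02 against -3.40 to -2.92 in all others. That 1 sample was thus the highest by one probe and the lowest by the other.

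Phlda3 (NM_001012206), an inhibitor of the survival kinase AKT, had the highest mean difference of the p53 targets. Its levels were -3.43, -2.75 and -2.04 in untreated cultures, -2.59, -2.65 and -2.28 at 2 h, -2.23, -2.84 and -2.11 at 6 h, -2.53, -2.66 and -3.01 at 12 h and -2.06, -2.38 and -2.31 at 24 h. The untreated samples spanned more than all 12 treated samples, 0 of which lay outside the untreated range. The difference at 24 h was 0.49 (SE 0.28, 95% interval -0.12 to 1.103) and that in the mean of the 4 times was 0.27 (SE 0.23, 95% interval -0.21 to 0.75). Without untreated replicate 1, its lowest sample, these were 0.15 and -0.08, and without untreated replicate 3, its highest, they were 0.84 and 0.62. Zmat3, an RNA-binding protein of the p53 response, differed by 0.03, 0.07, 0.22 and 0.09 (SE 0.17 each), with 0.02 at 12 h without 12 h replicate 3. The second probe of Zmat3, on 15 arrays, gave 0.28, -0.03, -0.002 and 0.42, and its 24 h value (95% interval -0.01 to 0.86, unadjusted p = 0.0569 in limma's fit over all probes) was not matched by the brighter probe.

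The targets that act on the cell cycle lay on both sides of their untreated level. Cdkn1a (NM_080782) encodes p21, the inhibitor of cyclin-dependent kinases that arrests cycling cells and is the best known p53 target. Its levels were 3.24, 3.33 and 3.60 in untreated cultures, 3.24, 3.64 and 3.87 at 2 h, 3.40, 3.06 and 3.39 at 6 h, 3.77, 3.46 and 3.73 at 12 h and 3.35, 3.95 and 3.66 at 24 h. Of the 12 treated samples, 6 were above the highest untreated sample, 2 were below the lowest and 4 were between. The highest was 24 h replicate 2 and the lowest was 6 h replicate 2, and at every time the group overlapped the untreated one. The differences were 0.19, -0.11, 0.26 and 0.26 (SE 0.19 each), with a 95% interval of -0.14 to 0.66 at both 12 and 24 h, an upper end of 1.58-fold. Leaving out 1 sample at a time moved the 2 h value between 0.04 and 0.36 (without 2 h replicate 3 and 1) and the 24 h value between 0.11 and 0.41 (without 24 h replicate 2 and 1). The mean of the 4 times differed by 0.15 (SE 0.15, 95% interval -0.17 to 0.47). The second probe of Cdkn1a, also on all arrays, gave -0.15, -0.02, -0.08 and 0.24, so the sign at 2 and 12 h differed between probes.

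Gadd45a (NM_024127), a stress protein that blocks cycling and aids repair, lay on the low side at each time. Its levels were -1.62, -1.85 and -1.66 in untreated cultures, -1.82, -1.90 and -1.80 at 2 h, -1.94, -1.88 and -1.70 at 6 h, -1.95, -1.79 and -1.89 at 12 h and -1.65, -1.98 and -1.94 at 24 h. Of the treated samples 7 were below the lowest untreated sample and 0 were above the highest, and the groups overlapped at every time. The differences were -0.13, -0.13, -0.17 and -0.15 (SE 0.12 each). These share the untreated samples and are not independent of each other. The mean of the 4 times differed by -0.15 (SE 0.09, 95% interval -0.34 to 0.05), with an unadjusted p of 0.134 and an adjusted p of 1 in limma's test. It stayed below 0 under each of the 31 alternatives run for it, between -0.23 and -0.10. Some of these could not change it: the replicate blocks, the filters on dim probes and, with 1 probe, the probe rule.

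Plk2 (NM_031821), a kinase that p53 switches on and that in neurons is also induced by synaptic activity, had levels of -0.62, 0.33 and 0.20 in untreated cultures, -0.06, -0.04 and 0.81 at 2 h, 0.06, -0.07 and 0.27 at 6 h, 0.10, 0.03 and 0.44 at 12 h and 0.14, -0.09 and -0.05 at 24 h. Untreated replicate 1 was the lowest sample of all and 2 h replicate 3 the highest. The mean of the 4 times differed by 0.16 (SE 0.20, 95% interval -0.28 to 0.59). Without untreated replicate 1 it was -0.14, and with that sample taken from its second array alone it was -0.02, so the sign rests on 1 array. Its relative Plk3 differed by -0.01, -0.02, 0.007 and 0.07 (SE 0.18 each).

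Ccng1 (NM_012923), the cyclin G1 gene and a p53 target whose protein acts on MDM2, showed the widest spread of the genes tested, with a within-group SD of 0.64 against a median of 0.20 over all features. Its levels for replicates 1, 2 and 3 were 0.12, 0.70 and -0.35 in untreated cultures, 0.05, 0.69 and -0.60 at 2 h, 0.02, 0.81 and -0.49 at 6 h, 0.13, 0.82 and -0.72 at 12 h and -0.40, 0.80 and 0.15 at 24 h. Up to 12 h the samples were ordered by replicate number in each group: replicate 1 lay between 0.02 and 0.13, replicate 2 between 0.69 and 0.82 and replicate 3 between -0.72 and -0.35. At 24 h the samples labelled 1 and 3 held each other's place, which is how the deposited score table has these scanner files. With these 2 exchanged, replicate number held 98.1% of the within-group variance of Ccng1, against a median of 25.9% over all features, and 177 of 18121 features were above 90%. In that order all samples of replicate 1 lay on slide 1 and those of replicate 3 on slide 2, with untreated replicate 1 on both. Number and slide cannot be told apart for these samples. Replicate 2 was on slide 1 in untreated cultures and at 2 and 6 h (0.70, 0.69 and 0.81). It was on slide 2 at 12 and 24 h (0.82 and 0.80). The part of the slide in the levels of Ccng1 was not tested. The second probe of Cdkn1a was likewise high in replicate 3 up to 12 h (2.38 to 2.54, against 1.27 to 1.82 in replicates 1 and 2) and held 94.5%, while its first probe held 7.5%. The differences of Ccng1 from untreated were -0.11, -0.04, -0.08 and 0.03 (SE 0.46 each), smaller than the spread between replicates.

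**Figure D2:**
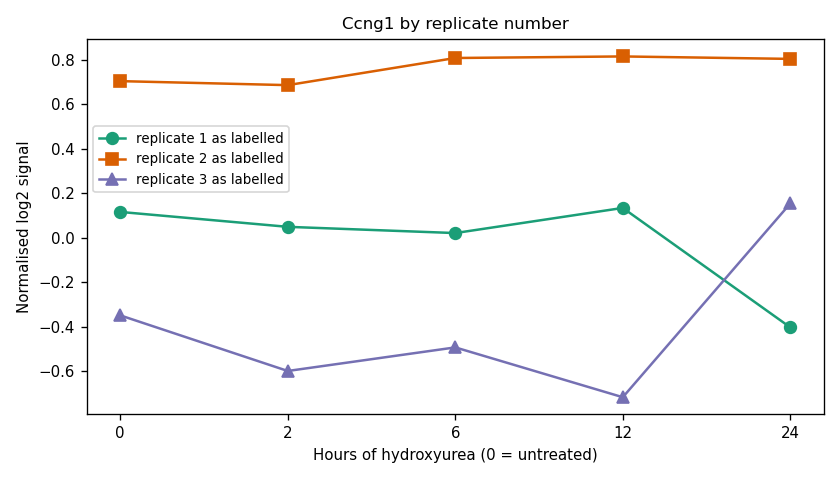
Normalised log2 signal of Ccng1 (y axis) by hours of hydroxyurea (x axis, 0 for untreated), 1 line for each replicate number as labelled, 1 point for each sample. The lines run level and apart from untreated to 12 h, replicate 2 highest and replicate 3 lowest, and replicates 1 and 3 trade places at 24 h.

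Of the targets that promote cell death, Fas (NM_139194), the death receptor, had the lowest mean difference. Its levels were -5.59, -5.14 and -5.13 in untreated cultures, -5.52, -5.58 and -5.14 at 2 h, -5.57, -5.49 and -5.56 at 6 h, -5.45, -5.78 and -5.19 at 12 h and -5.14, -5.82 and -5.52 at 24 h. The groups overlapped at every time, with 2 of 12 below it and 0 above. The differences were -0.13, -0.26, -0.19 and -0.20 (SE 0.20 each) and the mean of the 4 times differed by -0.19 (SE 0.16, 95% interval -0.53 to 0.14). The latter was -0.34 without untreated replicate 1 and -0.12 without untreated replicate 3. Its sign turned with another background correction (0.15 with normexp) and within slide 2 (0.04). Its second probe, on 7 arrays, gave -0.19, -0.04, 0.33 and 0.08. Tp53inp1 (NM_181084), which assists p53 in cell death, had levels of -2.31, -2.43 and -2.48 in untreated cultures, -2.43, -2.53 and -2.21 at 2 h, -2.36, -2.49 and -3.04 at 6 h, -1.95, -2.32 and -2.16 at 12 h and -2.52, -2.56 and -2.24 at 24 h. The lowest sample was 6 h replicate 3 and the highest 12 h replicate 1, and the groups overlapped at every time. The differences were 0.02, -0.22, 0.27 and -0.03 (SE 0.17 each), the one at 12 h with a 95% interval of -0.10 to 0.63. The 6 h value was -0.013 without 6 h replicate 3 and -0.36 without 6 h replicate 1.

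The other death genes did not pass the test either. Perp, a membrane protein, differed by -0.05, 0.03, 0.10 and 0.03 (SE 0.11 each), Ei24, a protein of the endoplasmic reticulum, by -0.009, 0.11, -0.17 and 0.11 (SE 0.17 each), and the nuclease gene Aen by 0.10, 0.01, 0.20 and 0.13 (SE 0.20 each). Both 12 h values of Ei24 and Aen rest on replicate 3: without it they were 0.03 and -0.02. The second probe of Aen gave -0.06, 0.02, 0.06 and 0.21. Xpc, which finds lesions for nucleotide excision repair, was the 1 repair gene among the p53 targets tested and differed by 0.02, -0.06, 0.07 and -0.05 (SE 0.15 each). Of the 14 p53 targets, 0 had treated values that all lay above or all below the untreated ones at any time. That is the case for 3.13% and 3.06% of all features at 2 h, 1.4% and 2.8% at 6 h, 3.22% and 2% at 12 h, and 1.33% and 1.87% at 24 h.

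**Figure D3:**
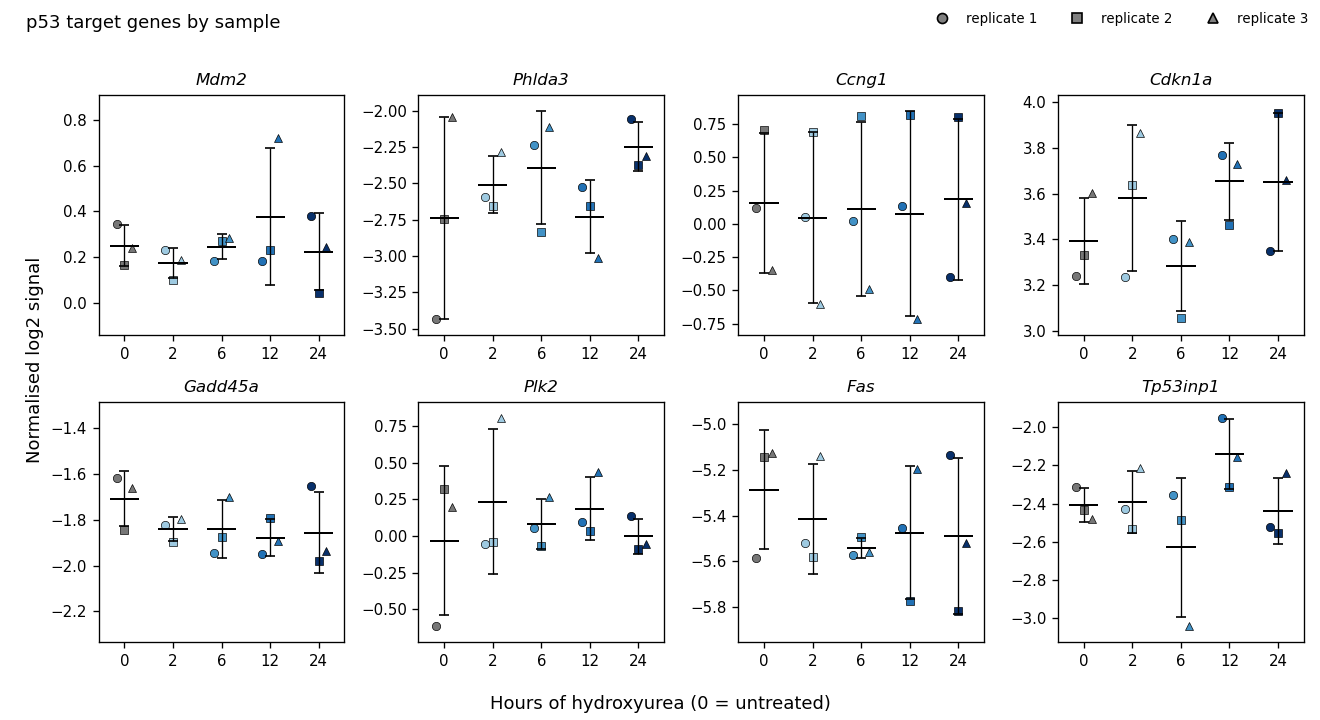
Normalised log2 signal (y axis, its own range in each panel) of 8 p53 targets by hours of hydroxyurea (x axis, 0 for untreated), with 1 symbol for each of the 3 replicates, horizontal bars for group means and error bars for the SD (n = 3). In each panel treated and untreated samples overlap at every time; the single 12 h sample high in Mdm2 and the low untreated sample in Phlda3 and Plk2 stand out.

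None of the checkpoint kinases passed the test, and most treated samples were below the untreated range for Chek1 and Chek2 and within it for Wee1. Chek1 (NM_080400) encodes CHK1, the kinase that ATR activates at stalled forks. Its levels were -2.38, -2.66 and -2.67 in untreated cultures, -2.66, -2.76 and -2.96 at 2 h, -2.56, -2.60 and -2.68 at 6 h, -2.77, -2.48 and -2.76 at 12 h and -2.74, -2.82 and -2.81 at 24 h. Of the 12 treated samples 8 were below the lowest untreated sample and 0 above the highest, and at 24 h all 3 were below all 3 untreated samples. The differences were -0.22, -0.05, -0.10 and -0.22 (SE 0.12 each); limma's unadjusted p was 0.0859 at 2 h and 0.0932 at 24 h, with an adjusted p of 1 at both. Without untreated replicate 1 these 2 differences were -0.13 and -0.12. The mean of the 4 times differed by -0.15 (SE 0.10, 95% interval -0.35 to 0.06). It stayed below 0 under each of the 31 alternatives run, between -0.25 and -0.05, the latter without untreated replicate 1, the highest sample for Chek1. As for Gadd45a, the replicate blocks, the filters on dim probes and the probe rule could not change it.

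Wee1 (NM_001012742), which holds back entry into mitosis, had levels of -0.56, 0.10 and 0.04 in untreated cultures, 0.003, -0.02 and -0.24 at 2 h, -0.07, 0.14 and 0.16 at 6 h, -0.08, 0.14 and 0.007 at 12 h and 0.05, -0.09 and -0.13 at 24 h. Untreated replicate 1 was the lowest sample, and the other 2 untreated samples lay among the treated ones. The mean of the 4 times differed by 0.13 (SE 0.12, 95% interval -0.14 to 0.40). It was -0.08 without untreated replicate 1 and -0.09 with only the second array of that sample. Chek2, the kinase downstream of ATM, differed by 0.02, -0.08, -0.14 and -0.11 (SE 0.11 each), and at 12 h its 3 treated samples lay below the 3 untreated ones. Of its 12 treated samples, 8 were below the lowest untreated sample and 1 was above the highest. Atm was well above background on 3 of 4 untreated arrays and on 1 array at each treated time. The second probe of Hus1 (below), also dim, was so on 2 untreated arrays and on 1 array at each treated time. All of these were arrays on which Atm was well above background too. The counts were not tested and are not read as a change in Atm, and no difference is given for it.

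Of the sensors and mediators at the fork, Rad17 (NM_001024778), which loads the checkpoint clamp, gave the largest difference among the members. Its levels were -2.05, -2.26 and -2.35 in untreated cultures, -2.04, -2.35 and -2.54 at 2 h, -2.23, -2.12 and -2.38 at 6 h, -2.40, -2.31 and -3.61 at 12 h and -2.20, -2.13 and -2.27 at 24 h. The lowest was 12 h replicate 3, at -3.61, and the other samples of all groups lay between -2.54 and -2.04. The difference at 12 h was -0.56 (SE 0.26, 95% interval -1.11 to 0.004), with an unadjusted p of 0.0515 and an adjusted p of 0.993 in limma's test. Without 12 h replicate 3 it was -0.14. H2ax (NM_001109291), the histone variant that is phosphorylated around broken DNA, had levels of -0.67, -0.38 and -0.29 in untreated cultures, -0.64, -0.69 and -0.49 at 2 h, -0.36, -0.57 and -0.61 at 6 h, -0.84, -0.43 and -0.50 at 12 h and -0.61, -0.08 and -0.84 at 24 h. At every time the treated samples overlapped the untreated ones, and the differences were -0.16, -0.06, -0.14 and -0.06 (SE 0.18 each).

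Replicates of the fork proteins Timeless and Rpa2 lay close together. Timeless, a fork protection protein, had the smallest within-group SD of the genes tested, 0.044, and Rpa2, a subunit of replication protein A, had 0.081. Timeless differed by -0.04, 0.03, 0.09 and 0.001 (SE 0.09 each), and its 3 samples at 12 h lay above the 3 untreated ones, at -1.14 to -1.07 against -1.23 to -1.18. Rpa2 differed by -0.02, -0.002, 0.05 and -0.06 (SE 0.10 each), and Hus1, a subunit of the clamp that Rad17 loads, by -0.02, 0.05, 0.04 and -0.011 (SE 0.11 each). The second probe of Hus1, on 6 arrays, gave 0.007, 0.01, 0.12 and -0.15.

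Among the repair genes, Fancd2 (NM_001001719), which marks blocked forks in the Fanconi anaemia pathway, had the highest mean difference. Its levels were -4.78, -4.27 and -3.85 in untreated cultures, -4.12, -4.41 and -4.24 at 2 h, -4.01, -4.18 and -4.19 at 6 h, -4.16, -3.96 and -3.66 at 12 h and -4.11, -3.76 and -4.33 at 24 h. Untreated samples spanned nearly the whole range, and 2 of 12 treated samples were above it and 0 below. The difference at 12 h was 0.37 (SE 0.21, 95% interval -0.08 to 0.83), with an unadjusted p of 0.101 in limma's test. It was 0.13 without untreated replicate 1, 0.60 without untreated replicate 3, 0.24 without 12 h replicate 3, and 0.02 without the 2 arrays of wide spot scatter. The mean of the 4 times was 0.21, and -0.03 without untreated replicate 1, whose first array was the 1 array on which Fancd2 was not well above background. Brca2 (NM_031542), which acts in homologous recombination, had levels of -1.47, -1.41 and -1.53 in untreated cultures, -1.34, -1.58 and -1.94 at 2 h, -1.53, -1.23 and -1.47 at 6 h, -1.27, -1.31 and -1.16 at 12 h and -1.58, -1.79 and -1.43 at 24 h. At 12 h its 3 samples were above the 3 untreated ones, and at 24 h they were below or among them. The differences were -0.15, 0.06, 0.22 and -0.13 (SE 0.15 each), the one at 2 h being 0.01 without 2 h replicate 3 and -0.29 without 2 h replicate 1, and its unadjusted p for any difference among the 4 times was 0.0799 (limma's F test, adjusted p = 1).

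The end-joining genes Xrcc5 and Xrcc6, which encode the subunits of the Ku heterodimer that binds broken ends, differed by 0.06, -0.05, 0.03 and -0.02 (SE 0.11 each) and by 0.04, -0.09, 0.11 and 0.09 (SE 0.12 each). The 12 h value of Xrcc6 was 0.006 without 12 h replicate 3. At 6 h its 3 samples lay below the 3 untreated ones. Parp1, the sensor of strand breaks, differed by 0.05, 0.003, 0.04 and 0.04 (SE 0.10 each), the narrowest intervals of the repair genes. In all, treated and untreated values of the checkpoint and repair genes were apart in 5 cases: above in 2 of 13 genes at 12 h (Brca2 and Timeless), and below in 1 of 13 at 6 h (Xrcc6), at 12 h (Chek2) and at 24 h (Chek1), with 0 at 2 h. Over all features the shares are those given above for the p53 targets.

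**Figure D4:**
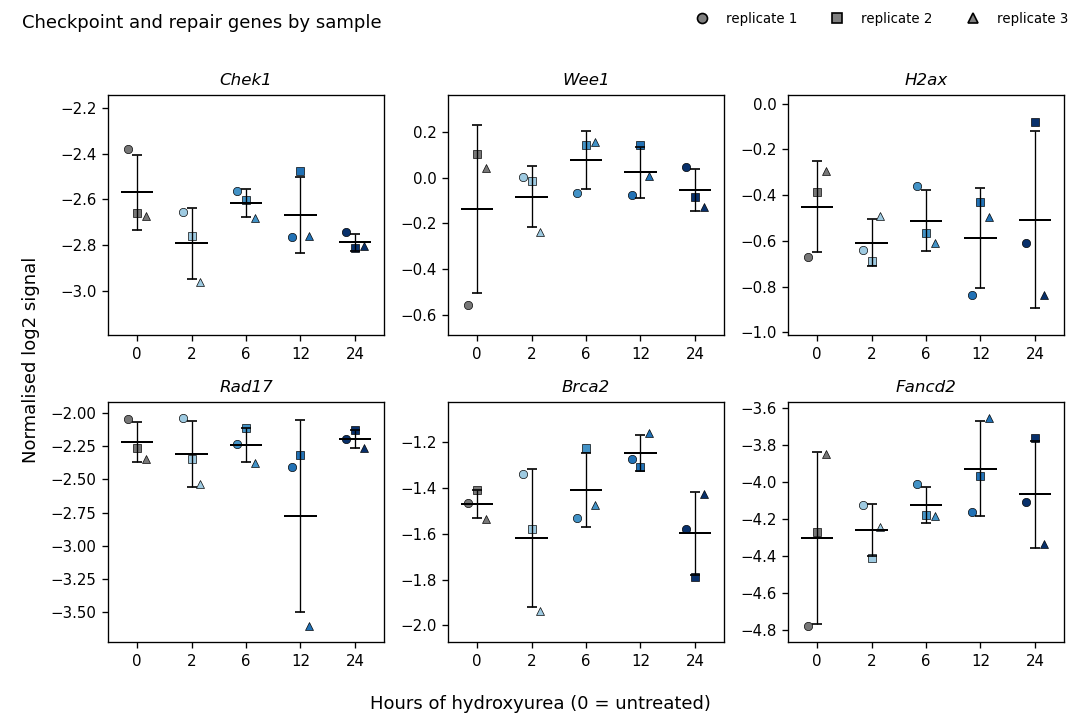
Normalised log2 signal (y axis, its own range in each panel) of 6 checkpoint and repair genes by hours of hydroxyurea (x axis, 0 for untreated), with 1 symbol for each of the 3 replicates, horizontal bars for group means and error bars for the SD (n = 3). Chek1 at 24 h lies below the untreated samples and Brca2 at 12 h above them; 1 sample at 12 h stands far below the rest for Rad17.

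Averaged over the 12 treated samples, the intervals are narrower. The 95% interval of the mean difference lay within 1 log2 unit of 0 for all 27 genes tested and within 0.5 for 21 of them. In this comparison 0 of 27 had an unadjusted p under 0.05, beside 1.73% of all features. Between 24 h and 2 h, 9 of 14 p53 targets and 9 of 13 checkpoint and repair genes were higher at 24 h, beside 50% of all features. Their medians were 0.055 and 0.022 against 0 over all features, and 0 members had an unadjusted p under 0.05, beside 0.836%. The F test for any difference among the 4 times had an unadjusted p under 0.05 for 1.21% of features and for 0 of the 27 genes, and 0 features passed.

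**Figure D5:**
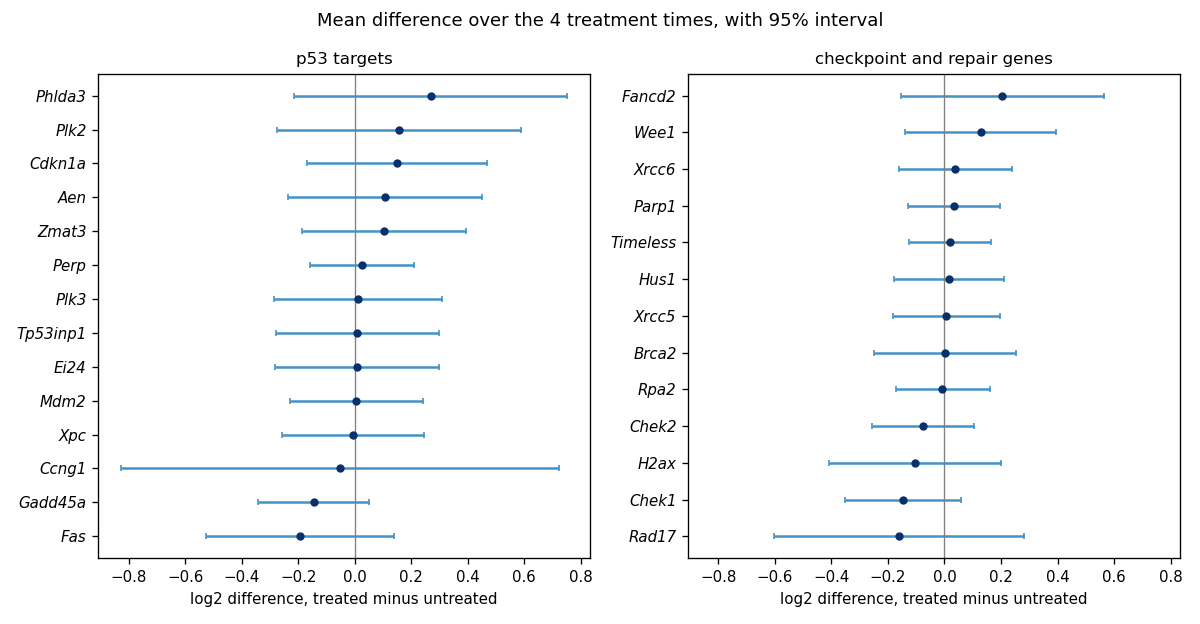
Log2 difference of the mean of the 4 treatment times from untreated (x axis) for each gene tested, p53 targets on the left and checkpoint and repair genes on the right, with 95% intervals from limma (12 treated and 3 untreated samples). Every interval includes 0; the widest is that of Ccng1 (-0.83 to 0.72).

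Other genes of the 2 pathways did not pass the test either. Of 32 further p53 pathway genes listed, 27 were matched and 26 tested, and 0 passed or had an unadjusted p under 0.05 at any time. They were higher than untreated in 15, 15, 20 and 15 of 26 at 2, 6, 12 and 24 h, beside the 49.4%, 45.2%, 56.6% and 50.4% of all features. The smallest p-values among them belonged to Tp63, the p53 relative, with a log2 difference of 0.24 (SE 0.12, unadjusted p = 0.0599) at 12 h, and to Sertad1, a regulator of CDK4 and E2F, with 0.49 (SE 0.24, unadjusted p = 0.062) at 24 h. The levels of Sertad1 were -4.25, -3.30 and -2.92 in untreated cultures, -2.98, -3.10 and -3.24 at 2 h, -3.06, -3.19 and -2.94 at 6 h, -3.25, -3.14 and -3.40 at 12 h and -3.01, -2.91 and -3.08 at 24 h, and untreated replicate 1 was its lowest sample. Without it the 24 h difference was 0.11, and without untreated replicate 3 it was 0.78.

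Of 53 further checkpoint and repair genes listed, 38 were matched and 37 tested. At each time 0 passed limma's test, and 2 of 37 had an unadjusted p under 0.05, both at 12 h, where 2.56% of all features did, and both of the Fanconi anaemia core complex. Fancc was lower, with -0.34 (SE 0.15, unadjusted p = 0.0473), and its 12 h replicate 3 was the lowest of all samples at -3.66. Without that sample the difference was -0.14. Fancb was higher, with 0.40 (SE 0.19, unadjusted p = 0.0485), and its 3 samples at 12 h, -1.71, -1.76 and -1.75, were above the untreated ones at -2.38, -1.91 and -2.13, as is the case for 3.22% of all features. Without the 2 arrays of wide spot scatter its difference was 0.20. Their adjusted p-values were 0.993. The further checkpoint genes were higher than untreated in 16, 9, 20 and 13 of 37 at 2, 6, 12 and 24 h, beside the same shares of all features as above, with medians of -0.019, -0.029, 0.014 and -0.030.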

How the data were processed

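Per the file headers, Agilent Feature Extraction 11.5.1.1 gave the deposited intensity of each spot, the processed signal, background-subtracted and not scaled between arrays. The deposited series values are, as checked against the scanner files, a standard score per array of the log signal; their scale was read from the values and they served as an alternative. The 4259 control spots and outlier-flagged spots were left out, and spots of each of 30367 probes were averaged on the log2 scale. Probe accessions were matched to RefSeq genes, which named 18758 probes.

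The intensity deposited by the authors was taken to log2 and the 75th percentile over probes of each array was subtracted. For a gene with several probes the brightest stood for it. Kept were probes that exceeded background (on more than 0.5 of their spots) in all arrays of 1 group or more, which left 11093 named genes and 7080 unnamed probes. In R 4.3.3 with data.table (1.17.8), limma (3.58.1; lmFit, eBayes) fitted the 15 samples at once, without covariates, with 10 residual and 3.67 prior degrees of freedom. Tests were two-sided, with Benjamini-Hochberg adjustment over all 18173 features in each comparison and a threshold of 0.05. The fit was tested on simulated data; no power is claimed from it here.

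The members, the further pathway lists and the markers were chosen with earlier results of these data known. Genes with values in every sample were Cdkn1a, Mdm2, Gadd45a, Ccng1, Plk2, Atr (no probe matched), Chek1 and H2ax, and in each group the 4 with the smallest unadjusted p against untreated and the 2 with the highest and the 2 with the lowest mean difference; of each further list the 2 with the smallest p were named. The number of arrays limits the precision. Alternatives changed the background correction, the scaling, the filter, the probe rule, the slides, the replicate number and the samples. The other background correction was normexp, run on the median spot and background signals. The 8 members without a matched probe were not analysed here.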

Additional observations from a re-analysis of the deposited data

How the results depend on the processing

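Of 5313 member tests under 33 settings, 0 passed, and the smallest adjusted p was 0.515. Of 5151 member differences recomputed, 92 moved by more than the within-group SD and 418 turned sign. In the mean of the 4 times, 7 of 27 members kept their sign under every alternative run. Chek1, Rad17 and Gadd45a were below 0, and Zmat3, Xrcc6, Aen and Cdkn1a above. No alternative took a second probe alone, since the one with every probe averaged the differences of a member's probes. Alone, the second probe gave -0.003 for Cdkn1a, 0.17 for Zmat3 and 0.06 for Aen. The replicate blocks and the filters on dim probes left all member differences unchanged, so they could not turn a sign. Of the 92, 23 were within slide 1, 25 within slide 2, 15 with normexp, 10 without the 2 arrays that stand apart, 5 without untreated replicate 1, 5 with each of its arrays alone, 3 without 12 h replicate 3 and 1 with every probe as a feature. Fits within 1 slide hold as few as 1 sample of a group, which is then assumed to vary like the other groups. With 3 samples a group, intervals are wide (above), and Atm, Brca1 and Pmaip1 are limited by their signal over background.

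Within slide 1 the 12 h group held 1 sample, replicate 1. A count of features passing at 12 h within that slide is therefore not given. For the median difference of the checkpoint and repair genes, the deposited scores gave -0.053 at 2 h. Within slide 1 it was -0.033 at 6 h, -0.025 at 12 h, -0.034 in the mean of the 4 times and -0.035 for 24 h against 2 h. Within slide 2 it was -0.063 at 6 h, -0.046 at 24 h and 0.077 for 24 h against 2 h. Without the 2 arrays that stand apart, an alternative chosen after seeing the data, it was 0.001 at 12 h and -0.029 in the mean. Leaving out 1 sample at a time gave 0.006 to 0.089 at 12 h, -0.042 to 0.009 at 24 h, -0.026 to 0.025 in the mean and -0.027 to 0.053 for 24 h against 2 h. The causes were not tested. Medians of the p53 targets moved by less than their spread between replicates in every alternative. That spread was 0.099, against 0.031 for the checkpoint and repair genes, so this does not show that they depend less on the processing. Over all settings the p53 medians ranged from -0.050 to 0.048 at 2 h, 0 to 0.137 at 12 h, -0.006 to 0.098 at 24 h and -0.014 to 0.082 in the mean.

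Same-numbered samples of different groups deviated together in 19 of 30 pairs at a correlation over 0.1 (lowest -0.423), so the numbers were not taken as pairing. With the replicate number as a block, 0 features and 0 members passed in any comparison, and the smallest adjusted p of a member was 0.946. With the 24 h files 1 and 3 exchanged, an alternative chosen after seeing the score table, 24 of 30 pairs exceeded 0.1 (lowest 0.006) and 13 of 15 samples correlated best with their own number, a hint from the data and not the design. Under this exchange every replicate 1 was on slide 1 and every replicate 3 on slide 2, with untreated replicate 1 on both. Replicate number and slide thus cannot be told apart for replicates 1 and 3 under the exchange. The replicate block then called 1 feature in the mean of the 4 times, the hypoxia-responsive gene Ankrd37 (0.69, adjusted p = 0.0278), and 0 members; the SE of Ccng1 went from 0.46 to 0.10 and its differences stayed between -0.11 and 0.03.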
